A study of Mus musculus with 2 samples.

Results

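The mouse Hox genes are 39 protein-coding genes in 4 clusters, taken from the GENCODE M21 annotation as every gene whose symbol is Hoxa, Hoxb, Hoxc or Hoxd followed by a number, out of 21829 protein-coding genes. Hoxa holds 11 of them on chromosome 6 (chr6:52155590-52260880), Hoxb 10 on chromosome 11 (chr11:96194316-96368256), Hoxc 9 on chromosome 15 (chr15:102921103-103036852) and Hoxd 9 on chromosome 2 (chr2:74668310-74765142), all in mm10. Chromatin accessibility was measured by DNase-seq, in which the nuclease DNase I cuts open DNA in isolated nuclei, in cerebellum of male mice of the F1 hybrid strain B6CASTF1/J (C57BL/6J by CAST), aged 36 days, as 2 samples. The samples form 1 group and carry no treatment in the labels, so there were no groups to compare and no test was made. They are labelled as biological replicates with a biosample each and are called animal 1 and animal 2, but both carry the same donor entry, so that they are separate animals rests on the biosample labels and the spread between them may be technical. Pairs of values below are those of animal 1 and animal 2, in that order.

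Hox genes encode homeodomain transcription factors that give cells along the head-to-tail axis their position. Within a cluster the genes lie in the order of their paralogue numbers, with low numbers used early and toward the head and high numbers used late and toward the tail, and all are transcribed in the same direction, from the high-number end toward the low-number end. The cerebellum arises from the most anterior hindbrain segment, which lies in front of the Hox expression domains, and silent Hox clusters are a classic target of the Polycomb repressive complexes. CTCF, a zinc-finger protein that with cohesin sets the ends of chromatin loops, binds at several places inside the clusters and is known there for separating active from silent stretches.

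The accessible places that stood highest in the clusters lay between neighbouring Hox genes, except in Hoxa, and their sequences are given first because the later counts turn on them. Peaks are intervals the authors called in each animal, and the height is the authors' own value for the peak, used here to rank peaks within an animal's list. In each of the 4 clusters the highest peak of both animals lay beside the group 9 gene on its low-number side. These places were between Hoxc9 and Hoxc8, between Hoxb9 and Hoxb8, and between Hoxd9 and Hoxd8. In Hoxa the highest peak lay at the outermost start of Hoxa7, next to Hoxa9. The whole peak of animal 1 is printed for the 3 that touch no untranslated region, 5′ to 3′ on the plus strand, in which Hoxb, Hoxc and Hoxd are transcribed. The bases are those of the reference assembly GRCm38.p6, so the CAST allele of these hybrids may differ. Capitals mark letters of a CTCF-type sequence in any of the 3 forms described further on.
Hoxc9-Hoxc8 peak (chr15:102987541-102987700): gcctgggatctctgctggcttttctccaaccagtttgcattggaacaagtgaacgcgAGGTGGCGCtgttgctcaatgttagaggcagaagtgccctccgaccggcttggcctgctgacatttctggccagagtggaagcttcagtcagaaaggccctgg
Hoxb9-Hoxb8 peak (chr11:96278901-96279060): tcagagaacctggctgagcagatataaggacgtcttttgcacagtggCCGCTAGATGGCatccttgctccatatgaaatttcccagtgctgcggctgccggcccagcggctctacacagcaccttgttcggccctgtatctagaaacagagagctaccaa
Hoxd9-Hoxd8 peak (chr2:74702321-74702460): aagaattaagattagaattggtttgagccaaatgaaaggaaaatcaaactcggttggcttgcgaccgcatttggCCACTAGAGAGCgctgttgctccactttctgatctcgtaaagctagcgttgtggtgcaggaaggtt

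The Hoxc9-Hoxc8 peak had a height of 10.03 in animal 1 and 5.31 in animal 2, above 93.7% and 89.4% of all peaks of the same animal. Its midpoint lay 2987 bp upstream of the start of Hoxc8, a gene known for motor neuron identity at brachial levels, and inside an intron of the long Hoxc5 gene record. The Hoxb9-Hoxb8 peak, 2925 bp upstream of a Hoxb8 start, had heights of 6.05 and 3.86, above 89.0% and 85.2% of peaks. The Hoxd9-Hoxd8 peak, 2225 bp upstream of a Hoxd8 start, had heights of 3.62 and 1.64, above 82.9% and 68.2% of peaks. The Hoxa cluster has no group 8 gene. Its highest peak (chr6:52221721-52221900 in animal 1) covered the outermost of the 4 coding starts of Hoxa7. The other Hoxa7 starts had no peak within 1 kb in either animal. The heights of this Hoxa peak were 5.22 and 3.22, above 87.5% and 82.3% of peaks. All 4 intervals were therefore called in both animals at nearly the same bases, and animal 1 was the higher in each.

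The next set of sequences shows 60 bases around such letters in 5 further peaks, 2 at promoters, 2 in exons of non-coding transcripts (Hoxd3os1 and, between Hoxa13 and Hoxa11, 9530018H14Rik) and 1 between genes, and 30 bases at the Hoxa7 and Hoxa10 starts, whose letters fall in untranslated sequence. Each is written 5′ to 3′ on the strand that holds the letters. The clause in brackets gives that strand and the end of the cluster toward which the letters read.
Hoxa7 start (chr6:52221799-52221828, minus, toward low numbers): agaaaattCCAGGAGATGGCagtgtggctc
Hoxa10 start (chr6:52240531-52240560, minus, toward low numbers): cgcagccgCCACGAGATGGCGCactcccga
Hoxa13-Hoxa11 (chr6:52257100-52257159, plus, toward high numbers): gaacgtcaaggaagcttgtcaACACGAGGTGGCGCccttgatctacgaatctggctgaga
Hoxc10 promoter (chr15:102966551-102966610, plus, toward low numbers): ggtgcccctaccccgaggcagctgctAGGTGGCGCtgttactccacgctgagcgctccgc
Hoxb5 promoter (chr11:96303224-96303283, plus, toward low numbers): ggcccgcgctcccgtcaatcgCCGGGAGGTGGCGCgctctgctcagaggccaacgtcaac
Hoxd13-Hoxd12 (chr2:74673153-74673212, minus, toward high numbers): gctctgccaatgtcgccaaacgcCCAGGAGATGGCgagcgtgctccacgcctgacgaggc
Hoxd3os1 exon (chr2:74715896-74715955, plus, toward low numbers): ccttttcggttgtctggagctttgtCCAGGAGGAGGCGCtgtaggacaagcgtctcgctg

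A promoter peak was found for 7 of the 39 Hox genes (17.9%) in animal 1 and for the same 7 in animal 2. Of all protein-coding genes, 67.0% in animal 1, 63.5% in animal 2 and 62.9% in both had one, so the Hox share lay far below the background. The promoter window of a gene reached 1 kb to each side of each protein-coding start, and a peak counted when it overlapped a window. In bulk tissue a low height can stand for few cells with open DNA or for little opening per cell, and these cannot be told apart. The 32 Hox genes without a promoter peak were the same in both animals. In the authors' smaller peak list 2 of the 7 genes, Hoxa7 and Hoxc5, kept such a peak in each animal, where 62.9% and 59.7% of all protein-coding genes had one, so the calls at Hoxd1, Hoxa4, Hoxb5, Hoxa10 and Hoxc10 below come from the larger list alone. With peaks above the median height of the list, the same 2 genes in animal 1 and Hoxa7 in animal 2 had one, against 59.3% and 55.8% of all genes.

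Among the low-numbered genes, which pattern the hindbrain, Hoxd1 had a promoter peak, with heights of 0.423 and 0.346 at a peak that overlapped its start. Hoxd1 is known in mice for a role in pain-sensing neurons. These were low values, above 28.1% and 14.3% of peaks of the same animal. The hindbrain genes Hoxb1, Hoxa2, Hoxb2, Hoxa3, Hoxb3 and Hoxd3 had none in either animal, among them Hoxb1, which marks the segment that forms the facial nerve, and Hoxa2, which patterns the second pharyngeal arch.

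In the central groups 4 to 8, which pattern the neck and trunk, 4 of 15 genes had a promoter peak. Hoxa7 was the highest of all Hox promoters at 5.22 and 3.22, at the outermost of its 4 coding starts alone. Hoxc5 followed at 0.965 and 0.810, with a peak 15 bp from its start in both animals, and animal 1 alone had a second peak in its window at 0.515. Hoxa4 reached 0.602 and 0.474 and Hoxb5 0.434 and 0.385, the last above 29.2% and 17.9% of peaks. Hoxa7 was thus the highest of the 4 and Hoxb5 the lowest in both animals. The 11 other central genes, Hoxa5, Hoxa6, Hoxb4, Hoxb6, Hoxb7, Hoxb8, Hoxc4, Hoxc6, Hoxc8, Hoxd4 and Hoxd8, had no promoter peak.

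In the posterior groups 9 to 13, which pattern the lumbar region, tail, limbs and genital tract, 2 of 16 genes had a promoter peak. Both belong to group 10, known for setting the lumbar vertebrae apart from the rib-bearing ones. Hoxc10 had heights of 0.743 and 0.405 and Hoxa10 heights of 0.640 and 0.454. Both genes were higher in animal 1, as were the other 5. Hoxd10 had none, nor had any gene of groups 9, 11, 12 or 13.

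By cluster, Hoxa had 3 accessible promoters of 11, Hoxb 1 of 10, Hoxc 2 of 9 and Hoxd 1 of 9. By paralogue number, groups 5 and 10 each had 2 of 3, groups 1, 4 and 7 each had 1, and groups 2, 3, 6, 8, 9, 11, 12 and 13 had none. No order along the clusters was visible in these counts, which are too small to rank the groups.

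**Figure D1:**
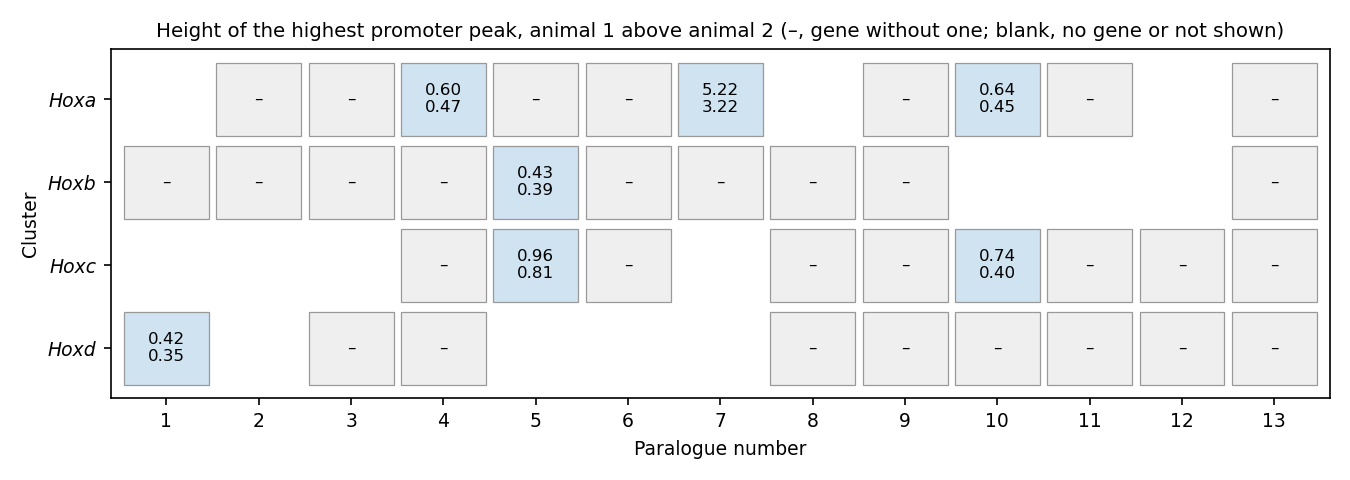
Height of the highest promoter peak of the Hox genes, with the cluster on the vertical axis and the paralogue number on the horizontal axis. Each shaded box gives animal 1 above animal 2, and the 7 shaded genes range from 0.423 and 0.346 for Hoxd1 to 5.22 and 3.22 for Hoxa7.

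The heights at these 7 promoters were low beside those of other accessible promoters. Their median was 0.640 in animal 1 and 0.454 in animal 2, against 9.10 and 6.65 over all protein-coding genes with a promoter peak. Hoxa7, the highest, was above 35.0% and 28.9% of accessible genes. From the nearest start of a Hox gene to the nearest peak the median distance was 4289 and 4472 bp. Over all protein-coding genes the median was 0 bp, because most of them had a start in a peak. The farthest Hox gene was Hoxb2, a hindbrain gene, at 48354 and 48330 bp.

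A second measure of the same libraries, the authors' false discovery rates along the genome, gave nearly the same genes. Stretches with a rate of 0.05 or less touched the promoter windows of 8 Hox genes in animal 1 and 7 in animal 2, against 67.8% and 64.5% of all protein-coding genes. The added gene in animal 1 was Hoxd9. Footprints, short stretches protected from cutting where a protein may sit, were present in the windows of 7 and 5 Hox genes, against 65.4% and 60.7% of all genes. In animal 2 the promoter windows of Hoxc10 and Hoxd1 held a peak and no footprint.

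CpG-rich promoters were usually accessible in this tissue, and Hox promoters were CpG-rich without being accessible. The median observed over expected CpG of Hox promoter windows was 0.596 against 0.425 for all genes, and the median GC content was 56.2% against 50.2%. When all genes were divided into 5 equal classes by this CpG ratio, the uppermost class held 15 Hox genes, of which 3 were accessible in both animals, against 97.4% and 95.1% of the 4365 genes of that class. The fourth class held 12 Hox genes, 3 with a peak, against 95.5% and 92.5% of its genes, and the third held 10, 1 with a peak (Hoxc5), against 89.8% and 85.6%. The remaining 2 Hox genes, Hoxb3 and Hoxc4, lay in the second class and had none. The gap between Hox genes and other genes thus lay within each of the upper 3 classes, and no test of it was made because the genes were chosen with earlier results known.

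**Figure D2:**
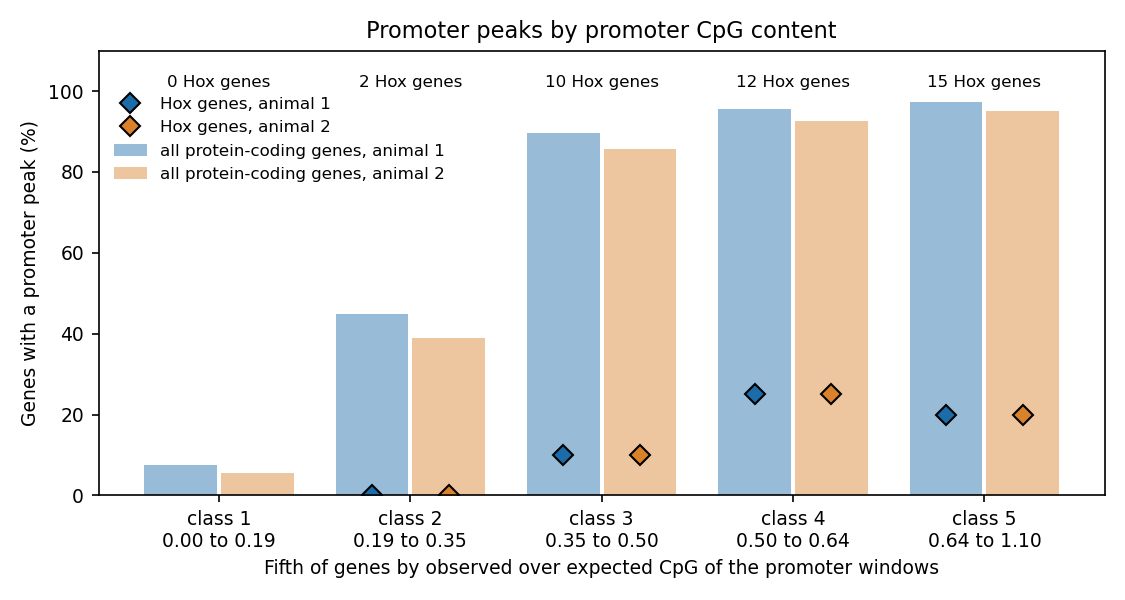
Share of genes with a promoter peak (vertical axis, percent) in 5 equal classes of promoter CpG ratio (horizontal axis), with bars for all protein-coding genes and diamonds for the Hox genes of the class, per animal. In the uppermost class the bars stand at 97.4% and 95.1% and the diamonds at 3 of 15 Hox genes.

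Along the clusters, 25 peaks of animal 1 and 21 of animal 2 had their midpoint inside, a mean of 23 ± 2.83 (SD, n = 2). All 21 peaks of animal 2 overlapped a peak of animal 1. Genome-wide, 80.4% of the peaks of animal 2 did so, and in the 100 kb flanking the clusters on each side all 20 did. The 4 peaks found in animal 1 alone were low, between 0.347 and 0.515, and lay at Hoxaas2, near Hoxb13, in the coding exon of Hoxc5 and at Haglr. Of the 21 shared peaks, 20 were higher in animal 1, with a median height ratio of animal 1 to animal 2 of 1.57, beside 1.25 over all peaks that overlapped between animals. The scaling of the heights is not stated, so this ratio is not read as a difference in accessibility.

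Hox promoter windows held 8 and 7 of these peaks, and 17 and 14 lay elsewhere in the clusters. The peaks elsewhere had a median height of 1.12 in animal 1 and 0.899 in animal 2, against 0.621 and 0.454 for those in Hox promoter windows. The ranges overlapped, from 0.347 to 10.03 and from 0.423 to 5.22 in animal 1. Apart from the highest peak of each cluster, the peak in an exon of 9530018H14Rik, between Hoxa13 and Hoxa11, reached 3.39 and 1.66. A peak between Hoxa7 and Hoxa6, in an intron of the long Hoxa3 gene record, reached 2.30 and 1.07. In Hoxd, the peak between Hoxd13 and Hoxd12 reached 1.78 and 0.909, and the peak at Hoxd3os1, an antisense transcript that starts on the low-number side of Hoxd8, reached 1.75 and 1.14. A peak in an intron of Hoxb6 had 1.46 and 0.533, a peak in the Gm53 transcript upstream of Hoxb9 had 0.770 and 0.425, and a peak in an intron of Hoxb5os next to Hoxb6 had 0.526 and 0.681, the only shared peak that was higher in animal 2. In Hoxc, a peak in an intron of Hoxc6 had 1.12 and 0.889. The high values thus came from a few places in each cluster, most of them between neighbouring Hox genes.

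**Figure D3:**
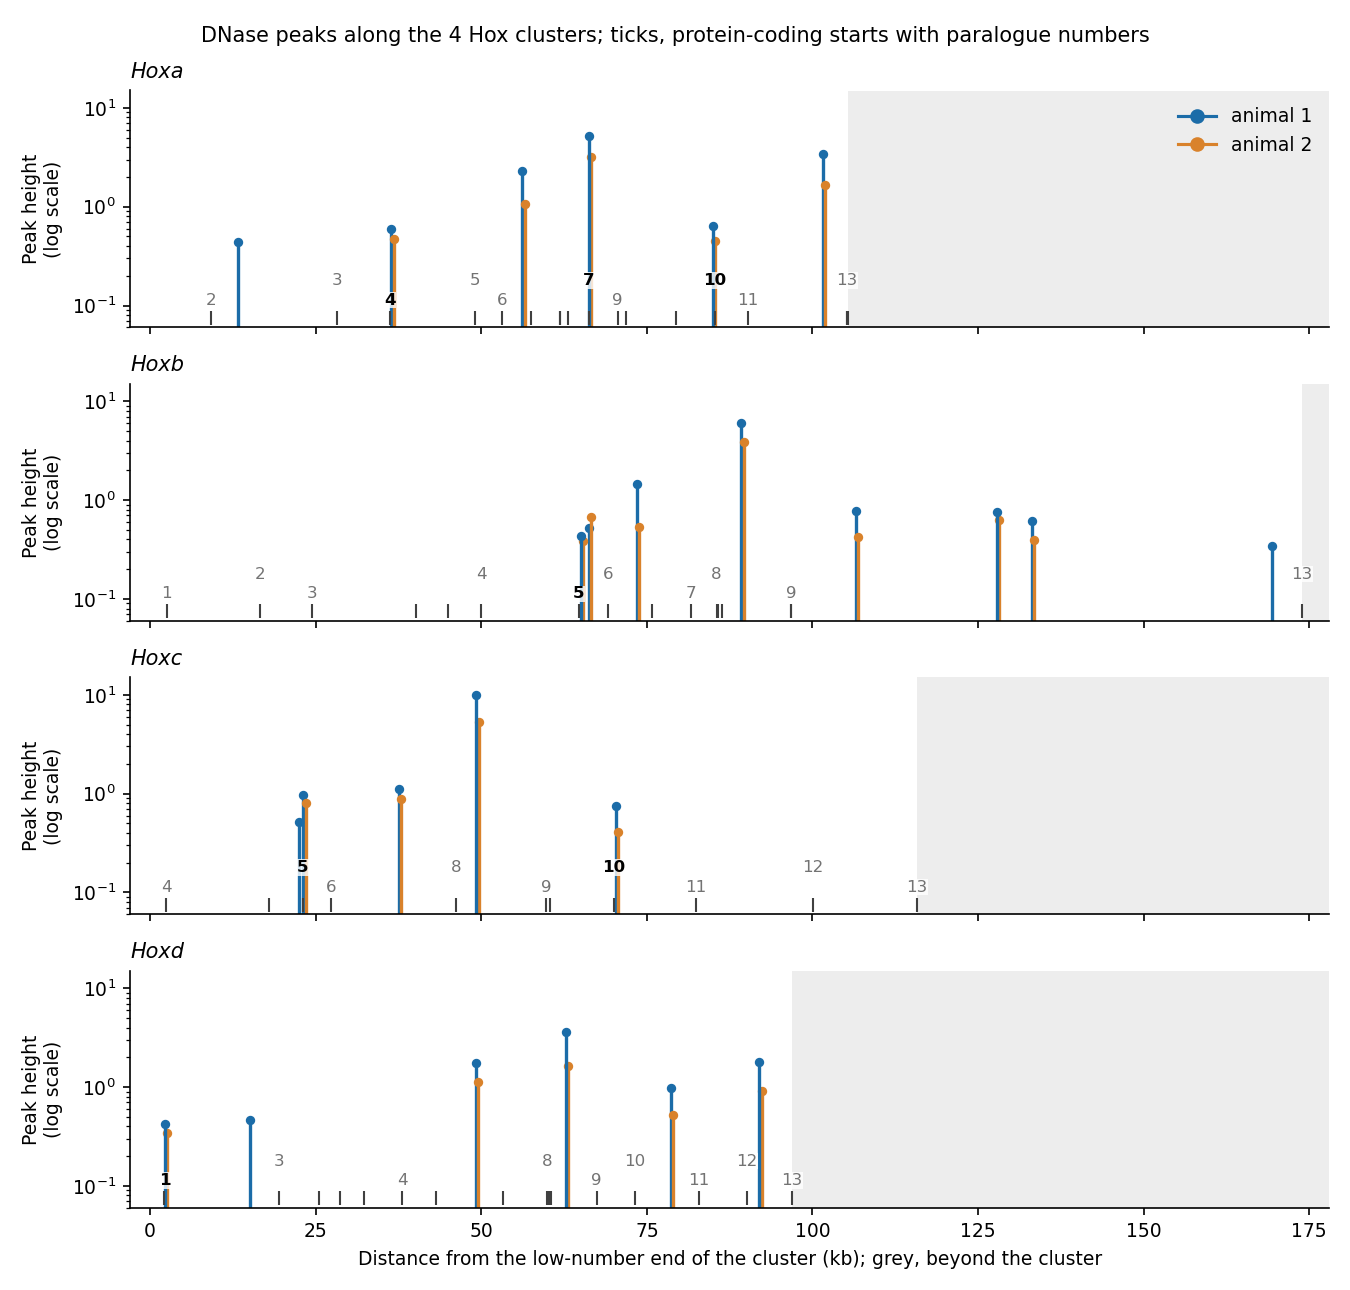
Peaks along each cluster, with distance from the low-number end in kb on the horizontal axis and peak height on a log scale on the vertical axis. Ticks are protein-coding starts of the genes shown, and numbers are paralogue numbers, bold for genes with a promoter peak, set at the start with a peak or else at the start nearest the low-number end. The highest stems stand at 49.2 kb in Hoxc, 89.3 kb in Hoxb, 66.2 kb in Hoxa and 62.8 kb in Hoxd.

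Long stretches held no peak of either animal. The longest was 65.0 kb at the low-number end of Hoxb (chr11:96303302-96368256), with Hoxb1, Hoxb2, Hoxb3, Hoxb4 and the transcribed part of Hoxb5. In Hoxc a stretch of 45.4 kb at the other end (chr15:102921103-102966503) held Hoxc11, Hoxc12 and Hoxc13. Hoxd had 33.9 kb without a peak between Hoxd3os1 and Haglr, and Hoxa 23.1 kb between Hoxaas2 and Hoxa4. The peak-free stretches therefore lay at the low-number end in Hoxb and at the high-number end in Hoxc.

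In density, the clusters were close to the genome as a whole. They had 5.08 and 4.27 peaks per 100 kb, against 5.29 and 4.32 per 100 kb of ungapped genome. Their flanking 100 kb on both sides had 4.38 and 2.50, giving a ratio of clusters to flanks of 1.16 and 1.71. This ratio depended on the width of the flank and fell to 0.813 and 1.04 with flanks of 200 kb, so a difference between clusters and surroundings was not established. The bases in stretches with a rate of 0.05 or less came to 5884 and 5090, or 1.20% and 1.03% of the clusters, against 1.65% and 1.48% of the genome. Repeats and composition moved with the clusters: masked repeats took 18.2% of the clusters, 29.6% of the flanks and 36.4% of the genome, and GC content was 49.3%, 44.1% and 41.7%. Their part in the densities was not tested.

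Set among tiles of the same length laid end to end over the autosomes, each cluster held more peaks than 50.4% to 63.6% of tiles in animal 1 and 48.1% to 61.7% in animal 2. Tiles with at least as many protein-coding genes as the cluster had Hox genes were far richer. For Hoxa, with 6 and 5 peaks, 26 such tiles had medians of 26.5 and 19 peaks. For Hoxb, with 8 and 7, 184 tiles had medians of 28 and 21.5. For Hoxc, with 5 and 4, 101 tiles had medians of 22 and 17. For Hoxd, with 6 and 5, 59 tiles had medians of 21 and 16. Hoxb held more peaks than 18.5% and 20.1% of its gene-rich tiles. The other clusters held more than 6.78% to 7.69% of theirs in each animal. Peak numbers in the clusters were thus ordinary for their length and low for their number of genes, least so in Hoxb.

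**Figure D4:**
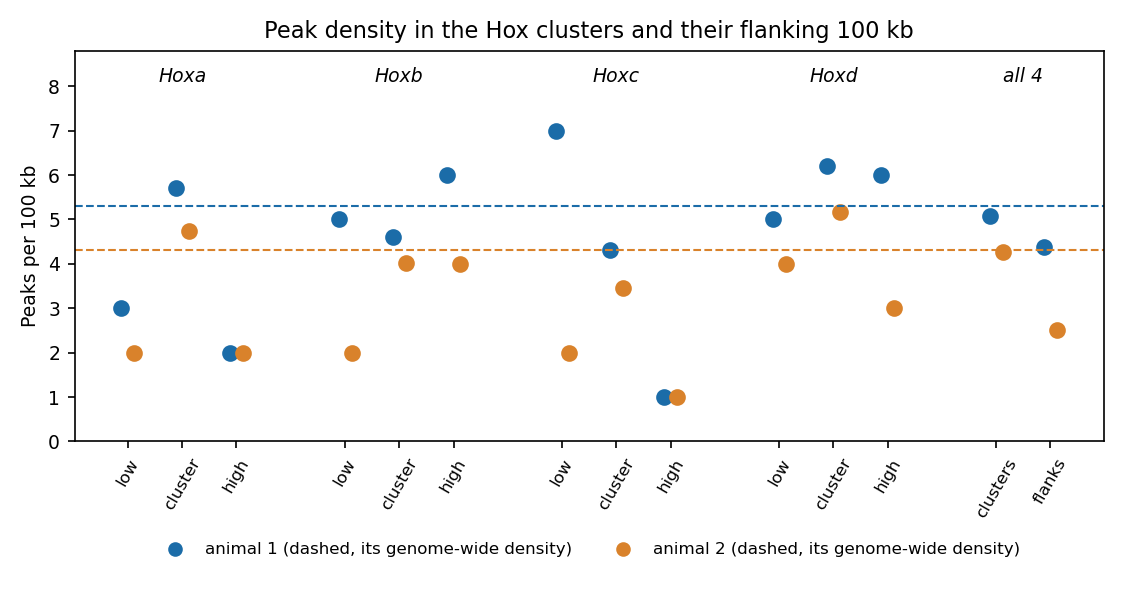
Peaks per 100 kb (vertical axis) in each cluster, in the 100 kb on its low-number and high-number sides, and in the clusters and flanks together, with a point for each animal and dashed lines for the genome. The clusters together stand at 5.08 and 4.27, close to the lines at 5.29 and 4.32, and the flanks at 4.38 and 2.50.

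Footprints inside the clusters numbered 65 in animal 1 and 36 in animal 2, of which 60 and 34 overlapped a peak. Per 100 kb the clusters had 13.2 and 7.32 footprints, against 12.9 and 9.92 in the genome. A footprint was present in 23 of 25 and 18 of 21 cluster peaks, against 78.4% and 72.5% of all peaks. The Hoxc9-Hoxc8 peak held 5 and 6, the most in animal 2, and in animal 1 the Hoxc5 promoter peak also held 5.

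The CTCF consensus CCANNAGNNGGC, in which N is any base, was searched on both strands in the 300 bp centred on each peak. It was in 4 of 25 and 4 of 21 cluster peaks, against 9.32% and 10.1% of all peaks of the 2 animals. The 4 places were the same: the starts of Hoxa7 and Hoxa10, the interval between Hoxd13 and Hoxd12, and Hoxd3os1. Of 33 consensus matches anywhere in the clusters, these 4 lay in a peak in both animals (12.1%), against 6.86% of 143057 matches in the genome. Taken per animal, the genome shares were 8.73% and 7.83%. In the flanks 1 of 57 matches lay in a peak of animal 1 and 0 in animal 2. The counts are small, and a share of 4 in 25 or 21 is not read as a difference from the background.

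At Hoxa7 and Hoxd3os1 all 12 letters of the match lay in a footprint in both animals, a footprint of 47 and 26 bp at Hoxa7 and of 31 and 16 bp at Hoxd3os1. At Hoxd13-Hoxd12 a footprint of 30 bp covered all 12 letters in animal 1 and one of 7 bp covered 5 of them in animal 2. At Hoxa10 a footprint reached 6 letters in animal 1 and 4 in animal 2. Over all matches inside peaks, the centre base lay in a footprint in 77.6% and 69.4%. A match is a description of letters and does not show which protein was bound.

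The highest peaks of Hoxb, Hoxc and Hoxd did not hold that consensus. After their sequences had been read, 2 further forms were searched, and these counts support nothing on their own. The shorter letters AGNNGGCGC, which are the second part of the CTCF sequence with its CpG, were in 9 of 25 and 8 of 21 cluster peaks, against 8.05% and 8.14% of all peaks. They include the Hoxc9-Hoxc8 peak, the Hoxa13-Hoxa11 peak, Gm53, and the promoters of Hoxb5 and Hoxc10. The consensus with at most 1 of its fixed letters changed was in 14 of 25 and 14 of 21, against 43.7% and 44.1% of all peaks, a form so frequent that its presence in the Hoxb9-Hoxb8 and Hoxd9-Hoxd8 peaks says little. CpG content differs between peaks, and its part in the count of AGNNGGCGC was not tested.

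The marked letters in the highest peaks lay wholly in footprints in both animals. Except at Hoxa7, these are forms added after the sequences were read, so their place in footprints supports nothing on its own. At Hoxc9-Hoxc8 all 9 letters lay in footprints of 32 and 30 bp, and at Hoxa13-Hoxa11 in footprints of 32 and 35 bp. At Hoxb9-Hoxb8 all 12 letters lay in footprints of 30 and 35 bp, and at Hoxd9-Hoxd8 in footprints of 37 and 30 bp. At lower peaks the coverage varied. The Gm53 letters lay in a footprint of 24 bp in animal 1 and in none in animal 2, and in a peak of the Hoxd11 gene, which holds 2 matches to the form with 1 changed letter, one lay in footprints of 28 and 13 bp and the other in none. At Hoxc10 a footprint of 16 bp covered 6 of 9 letters in animal 1, at Hoxb5 one of 16 bp covered 4 of 9, and neither had one at the letters in animal 2. No footprint of either animal lay at the letters in the Hoxc6 intron peak, in a peak between Hoxb13 and Hoxb9 on the high-number side of Gm53, or in the coding exon of Hoxc5. Inside all cluster peaks, the centre of a match lay in a footprint for 6 of 8 and 4 of 8 AGNNGGCGC matches. Over all peaks this held for 61.4% and 57.7% of AGNNGGCGC matches. For the form with 1 changed letter it held for 10 of 13 and 6 of 12 matches in cluster peaks. Over all peaks that form had 46.2% and 41.9%. The cluster counts are small and are not read as a difference. The letters read toward the low-number end at the highest peak of each cluster. They read toward the high-number end between Hoxa13 and Hoxa11, between Hoxd13 and Hoxd12, and in 2 peaks between Hoxb13 and Hoxb9, one of them at Gm53, and toward the low-number end at the remaining places.

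**Figure D5:**
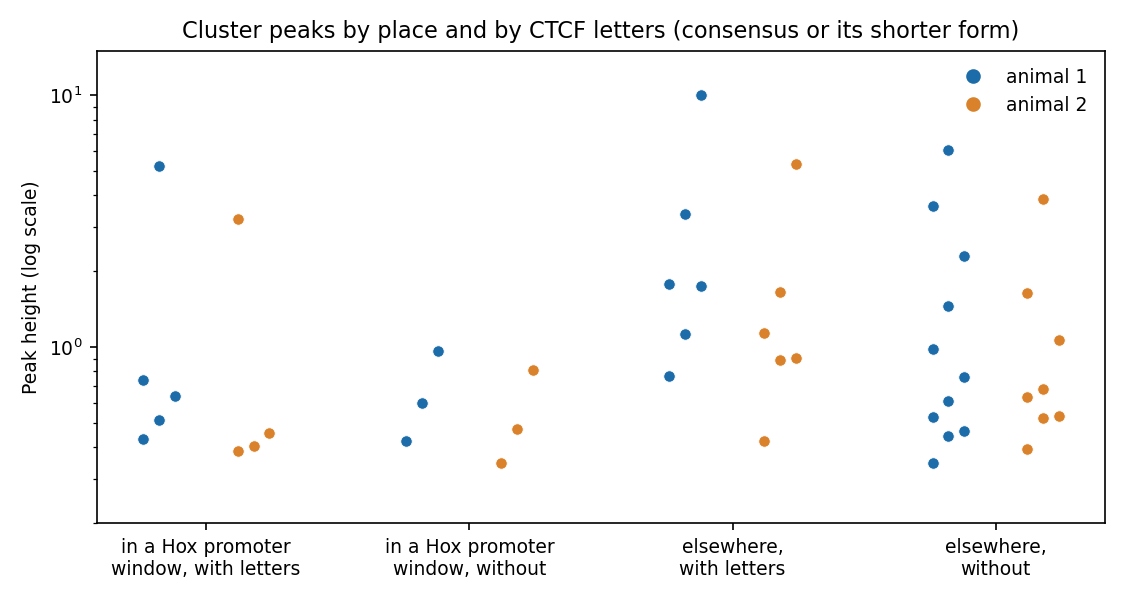
Heights of the cluster peaks on a log scale (vertical axis) in 4 classes (horizontal axis): inside or outside Hox promoter windows, with or without CCANNAGNNGGC or AGNNGGCGC in the central 300 bp. Each point is a peak, and the highest, at 10.03 and 5.31, is the Hoxc9-Hoxc8 peak outside promoter windows.

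Letters of factors that act on Hox genes in the embryo were rare in the cluster peaks. The Hox-Pbx letters TGATTNAT, read by Hox proteins with their Pbx partners, were in 0 of 25 and 0 of 21, against 2.60% and 2.92% of all peaks. The retinoic acid direct repeat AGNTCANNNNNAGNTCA was in none, and in 0.0963% and 0.101% of all peaks. The homeodomain core TAATTA (4.64% and 5.47% of all peaks), the Cdx letters CAATAAA (3.22% and 3.58%) and the YY1 letters AAGATGG (6.43% and 6.22%) were each in 1 cluster peak of both animals. The E-box CAGATG, read by neuronal factors such as Neurod1, was in 2 of 25 and 2 of 21, against 27.7% and 28.6% of all peaks, and the NFI letters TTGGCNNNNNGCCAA were in 0, against 0.162% and 0.165%. The E-box share lay below that of all peaks, without a test, and for the other letters 0 or 1 peak is not read as a difference.

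Inside the clusters start 43 annotated genes that are not protein-coding. Of these, 7 in animal 1 and 4 in animal 2 had a peak within 1 kb of a start. Over all genes of this kind in the genome the shares were 18.7% and 15.8%. The cluster counts are small and are not read as a difference. Highest of the 43 was 9530018H14Rik at 3.39 and 1.66, then Hoxd3os1 at 1.75 and 1.14 and Gm53 at 0.770 and 0.425. Haglr had 0.466 and 0.346, the peak of animal 2 being that at the Hoxd1 start. Hoxaas2, Gm27898 and Mir615 had one in animal 1 alone. Hotair, Hotairm1 and the microRNA genes Mir10a, Mir10b, Mir196a-1, Mir196a-2 and Mir196b, which sit among the Hox genes and several of which are known to act on Hox messages or chromatin, had none in either animal. The 3 other protein-coding gene records in the clusters, Gm28308, 5730596B20Rik and Gm28230, had none.

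In the flanks, the 2 outer neighbours of Hoxd were open. Lnpk, which encodes a protein of endoplasmic reticulum junctions, had heights of 13.1 and 9.12, and Mtx2, a mitochondrial import gene on the other side of Hoxd, 5.48 and 4.15. Both were above the highest Hoxd peak in both animals. Evx2, the homeobox gene next to Hoxd13, had 0.369 in animal 1 and no peak in animal 2, and Evx1, its counterpart beside Hoxa13, had none. Beside Hoxb, the tubulin-modifying gene Ttll6 had 1.19 and 0.622, Skap1 had 0.358 in animal 1 alone, and Calcoco2 had none. In all, 5 and 3 of 7 flanking protein-coding genes had a promoter peak, against 67.0% and 63.5% of all protein-coding genes. A count out of 7 is not read as a difference. Hottip, the long non-coding RNA beside Hoxa13, had none, and Halr1 had 0.222 in animal 1 alone. The highest peaks of the other flanks stood at 0.976 and 0.790 on the high-number side of Hoxa, 1.71 and 1.03 on that of Hoxb and 0.276 and 0.257 on that of Hoxc, and at 0.255 and 0.277, 1.10 and 0.751, and 0.455 and 0.316 on the low-number sides of Hoxa, Hoxb and Hoxc.

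Genes that encode partners and regulators of Hox genes were largely accessible. Of the 9 Hox cofactors, 9 and 8 had a promoter peak, with a median height of 9.78 and 7.60. Pknox1 was the highest in both animals at 25.6 and 18.3, and Meis2 had 0.499 in animal 1 and none in animal 2. Of 12 genes of Polycomb repressive complex 2, which writes the repressive histone mark, 12 and 11 had one, with Ezh2 at 20.97 and 14.2 and Eed at 16.4 and 9.39, while Phf19 had 0.634 and none. All 19 genes of Polycomb repressive complex 1 had one in both animals, including Cbx8 at 34.2 and 25.3. All 11 genes of the opposing Trithorax group and the enzymes that remove the Polycomb mark had one in both, including Kmt2a at 27.2 and 14.4. Ctcf had 13.9 and 8.68 and the cohesin gene Rad21 17.6 and 12.8, and all 9 annotated boundary factors had one in both animals. These shares are set beside 67.0% and 63.5% of all genes, and no test of the lists was made.

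Of 18 genes listed for the early control of Hox genes in the embryo, 13 and 12 had a promoter peak. These shares lay near the 67.0% and 63.5% of all genes. Rxrb had 25.2 and 13.3, and Rarg, a retinoic acid receptor, had 8.76 and 6.25. Cdx1, Cdx2, Cyp26a1, Cyp26c1 and Wnt3a had none. Of 11 homeobox genes linked to the clusters or related to them, 6 and 4 had one. The highest were En2, at 16.4 and 10.8, and En1, at 3.45 and 3.73, both midbrain and cerebellum genes, and Gbx2, Gsx2, Pdx1, Cdx2 and Evx1 had none. En2 was thus higher than every Hox promoter in both animals.

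Marker genes were counted to set them beside the tissue label. A peak at a promoter was common in any case, at 67.0% of protein-coding genes in animal 1 and 63.5% in animal 2. A list near these shares therefore says little about its cell type. This holds for the Purkinje list in both animals, for the mesenchyme list in animal 1 and for the oligodendrocyte list in animal 2. The lists are short, and no test of them was made. All 8 granule cell markers had a promoter peak in both animals, such as Cbln3 at 27.9 and 17.1 and Neurod1 at 20.6 and 12.6, and 4 of 6 Purkinje cell markers had one, with Pcp2 and Skor2 at none. Of the astrocyte list 5 and 4 of 5 had one, and of the oligodendrocyte list 5 and 4 of 6. Of the mesenchyme list 3 and 2 of 5 had one, of the endothelial list 4 and 1 of 4, and of the choroid plexus list 2 and 1 of 4, with Ttr at none. None of the 5 microglial and none of the 4 blood markers had one. Of 12 markers of brainstem and spinal neurons, the neighbouring tissue in which Hox genes stay expressed, 5 and 3 had one, with Tlx3 at 7.46 and 5.24, Tph2 at 3.45 and 2.38 and Mnx1 at 0.537 and 0.296, while Phox2a, Lmx1b, Fev, Dbh, Slc6a2, Chat and Slc18a3 had none. The part of such cells in the Hox promoter peaks was not tested.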

How the data were processed

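DNase-seq files of 2 samples, labelled as biological replicates and called animals here, were used, 1 library each. Per the labels the assembly is mm10. Which aligner and which callers were used is not given in the sources used here. The authors deposited, for each animal, a larger (140127 and 114404 peaks) and a smaller peak list, in which the value used is the height, a signal whose scaling is not stated, called per animal and not pooled. The larger list was the main one. The authors deposited false discovery rates for stretches of the genome, and adjoining stretches with a rate of 0.05 or less were merged here. They also deposited footprints, whose p-value entry is constant and of which positions alone were used. Read depth is unknown, so no interval was computed. Values are given for both.

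Genes, starts and UTRs came from GENCODE M21 (nuclear protein-coding genes, 1 per symbol) and sequence from GRCm38.p6, read with pysam 0.24.0 under Python 3.11.15. Peaks were placed in clusters by their midpoint, and a cluster ran from the first to the last base of its Hox gene records. CpG ratios were taken over the promoter windows. Counting and motif searches were tested on simulated data. The members, lists and planned motifs were chosen with earlier results of these data known; 2 motif forms were added after the peak sequences were read. Members with a promoter peak, the highest peaks of each cluster, flank neighbours and listed genes are named. The smaller list, other windows, starts, flanks, thresholds and overlaps, and each animal alone, were tried as alternatives. A single member counts in the totals but is not reported here by itself.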

Additional observations from a re-analysis of the deposited data

How the results depend on the processing

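Of 77 alternative values, 57 stayed within 1.5 times the count reported or within the spread of the animals, and 20 moved. With windows of 500 or 2000 bp on each side, the outermost start, midpoints, or stretches at a rate of 0.05, the Hox genes with a promoter peak numbered 7 to 9 in each animal. In the smaller list they were 2 in animal 1, 2 in animal 2 and 2 in both (Hoxa7 and Hoxc5), when 62.9% and 59.7% of all genes had one, and above the median height of the list 2, 1 and 1, Hoxa7 being the gene in both. Cluster peaks fell to 14 in animal 1 in the smaller list, and to 13 and 8 above the median height. Cluster peaks of animal 2 that overlap one of animal 1 fell to 13, the smaller list having 14 in each animal. The density ratio was 1.56 and 2.44 with flanks of 50 kb and 1.04 in animal 2 with flanks of 200 kb, where animal 1 had 0.813, below equality, and 1.75 in animal 1 in the smaller list. Bases in accessible stretches were 3694 and 3332 at a rate of 0.001. The CTCF letters were in 9 and 8 cluster peaks in the shorter form and in 14 and 14 with 1 letter changed, forms chosen after the sequences were read. The cause of these moves was not tested, beyond fewer peaks in the stricter lists. For ratios and heights, leaving out either animal could not move a mean beyond the spread, which came from the same 2 values. Counts of either animal stayed within 1.5 times the mean, though footprints numbered 65 and 36. Taking the peak nearest to a start could not change a gene with a single promoter peak. The 57 values that stayed include such fixed ones. With 2 animals of 1 group, depth unknown and no expression data, a Hox gene without a peak is one not called at this depth.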
